A study of Homo sapiens with 3 samples.

Results

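The genes described here are 71 genes of the extracellular matrix: every collagen chain gene and every laminin chain gene listed in the count tables, together with FN1, FBN1, FBN2, SPARC, LUM, DCN, BGN, FBLN1, ELN, POSTN, NID1, HSPG2, LOX, LOXL1 and LOXL2. They were chosen by symbol alone from 43913 genes in all, and antisense genes, pseudogenes and COL4A3BP were not taken. The tables list 71 of them in each monoculture and 70 in the coculture, where COL21A1 was not listed. The study cultured human bone marrow stromal HS-5 cells and multiple myeloma MM.1S cells alone or together for 4 h, with no drug or cytokine added, and profiled single cells by Drop-seq, in which each transcript is tagged at its 3′ end and counted through a random tag, the unique molecular identifier or UMI. A single library was made for each condition, 3 in all: MM.1S monoculture, HS-5 monoculture and coculture. HS-5 is an established line immortalised with papillomavirus genes and grown from a single clone, and MM.1S is an established myeloma line, so that each stands for a whole cell type by a single line. With 1 library for each condition there is no replicate error and no test between conditions: intervals below are 95% intervals that cover counting error only, and p-values are not given.

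Fibrillar collagens are secreted as trimers that line up into the load-bearing fibres of the marrow stroma, and lysyl oxidases crosslink them. Collagens IV and the laminins build the sheet-like basement membrane, collagen VI forms beaded filaments around cells, and fibronectin and the fibrillins form fibres to which cells attach through integrins. Stromal cells are the usual source of this matrix in bone marrow, where myeloma cells bind it.

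The libraries held 3865 HS-5 monoculture, 3994 MM.1S monoculture and 3963 coculture barcodes, with a median of 949, 2183 and 789 UMIs for each barcode, and 39 to 76 barcode sequences were shared between any pair of libraries. Barcodes under 200 detected genes were dropped, and coculture cells were divided by genes at least 50-fold higher in one monoculture than in the other, with the matrix genes left out of that choice. This gave 2100 HS-5 cells and 1648 MM.1S cells in coculture, and 108 cells that carried genes of both lines were set aside. Levels are UMIs summed over the cells of a group per 1000000 UMIs (CPM). The sums rested on 6142273 UMIs for HS-5 monoculture, 2470717 for HS-5 coculture, 10433017 for MM.1S monoculture and 1331675 for MM.1S coculture. Markers went with the labels only in part. In HS-5 cells NT5E stood at 260 CPM and CALD1 at 231 CPM in monoculture, but TAGLN had 2 UMIs, and CAV1, S100A6 and LGALS1 were abundant in MM.1S cells too, at 457, 2926 and 1847 CPM in monoculture. In MM.1S monoculture JCHAIN stood at 6664 CPM and MZB1 at 2526 CPM, while PTPRC, CD27 and SLAMF7 had 15, 2 and 21 UMIs. SDC1, the myeloma marker CD138, went against the labels, at 135 and 126 CPM in HS-5 monoculture and coculture and 38.1 and 125 CPM in MM.1S monoculture and coculture. The summed level of 5 endothelial markers lay between 8.24 and 17.3 CPM over the 4 groups, and that of the 4 macrophage markers found lay between 1.5 and 2.93 CPM. The 5 osteolineage and chondrocyte markers found summed to 46.1 and 45.3 CPM in HS-5 monoculture and coculture, led by SOX9 at 36.3 and 30 CPM, and to 8.53 and 27.8 CPM in MM.1S monoculture and coculture.

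Matrix transcripts were a small and similar part of the HS-5 message in both conditions. They made up 0.477% of UMIs in HS-5 monoculture (0.472 to 0.483) and 0.501% in HS-5 coculture (0.492 to 0.510), against 0.101% in MM.1S monoculture and 0.260% in MM.1S coculture. Of the 71 genes, 33 averaged 10 CPM or more over the 2 HS-5 sums, 13 of them at least 100 CPM, and none reached 1000 CPM. The other 38 lay below 10 CPM, among them genes that define fibroblasts in many tissues: COL3A1 had 30 UMIs in HS-5 monoculture and 12 in coculture, DCN 38 and 23, LUM 2 and 2, POSTN 2 and 1, and ELN, the gene of elastin, 9 and 1. Because UMIs are counted at the 3′ end, CPM is not scaled to transcript length, and levels of different genes are compared below only as UMI counts.

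**Figure D1:**
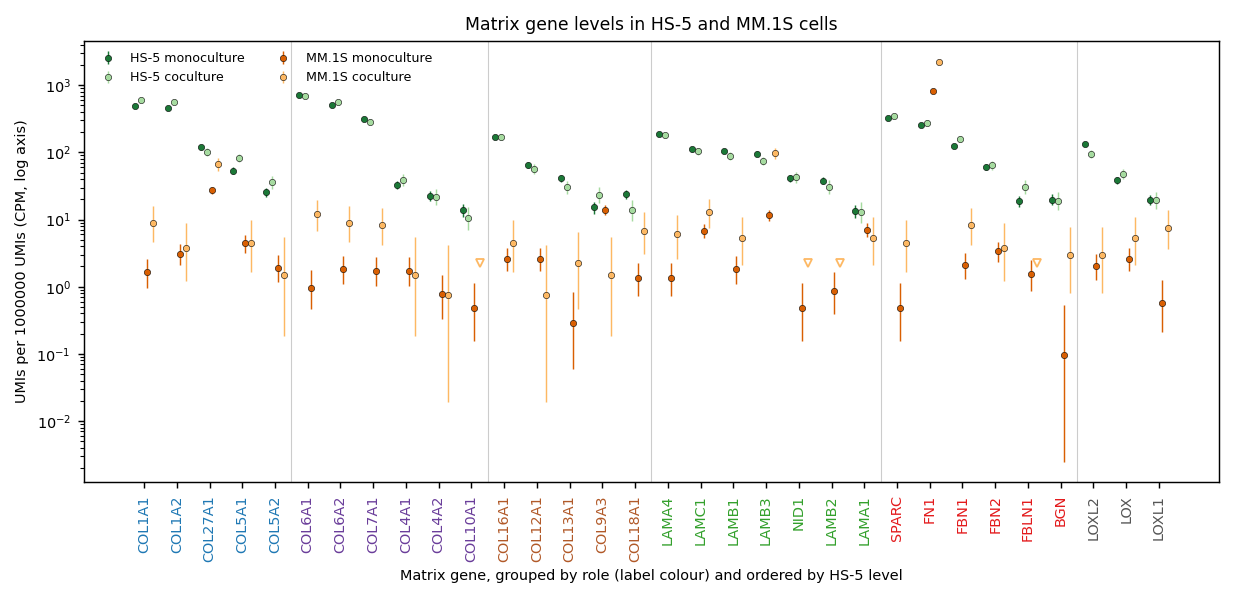
Level of 32 of the 33 matrix genes that averaged 10 CPM or more in HS-5 cells, in UMIs per 1000000 UMIs on a log axis, in each of the 4 groups. Bars are exact 95% Poisson intervals, open triangles mark 0 UMIs at the level of 3 UMIs, and FN1 is the gene whose MM.1S levels exceed those of HS-5 cells in both conditions (810.3 and 2227 CPM against 252 and 278 CPM).

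The chains of collagens I and VI were the most abundant members in HS-5 cells. COL6A1 stood at 716 CPM in HS-5 monoculture and 691 CPM in coculture, and COL6A2 at 511 and 557 CPM. COL1A1 stood at 498 and 613 CPM, and COL1A2 at 454 and 556 CPM. The third chain of the classical collagen VI trimer, COL6A3, had only 6 UMIs (0.977 CPM) in monoculture and 27 UMIs (10.9 CPM) in coculture. Of those 27 UMIs, 15 came from a single cell and the rest from 11 other cells, while the 6 monoculture UMIs came from 5 cells. The log2 ratio was 2.59, but COL6A3 averaged below 10 CPM over the HS-5 sums and was not called. A single cell thus held most of its coculture UMIs, and in cells under 1000 UMIs it had 0 UMIs in monoculture and 6 in coculture. COL6A3 is singled out here after its values were seen.

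The upstream sequences of COL6A2 and COL6A3 are shown because these chains are assembled together while their UMI counts differed by orders of magnitude. RefSeq promoters (GRCh38.p14) were matched for 52 of the 71 genes, and the 200 bases before the start site were searched on both strands for TATAAA (the TATA box), for CCAAT (the binding motif of NF-Y), for GGGCGG (the GC box), for TGACGTCA (the cyclic AMP response element), for TGANTCA (the AP-1 element) and for the kappaB consensus. Capitals mark every match, on either strand, and matches may overlap.
COL6A2: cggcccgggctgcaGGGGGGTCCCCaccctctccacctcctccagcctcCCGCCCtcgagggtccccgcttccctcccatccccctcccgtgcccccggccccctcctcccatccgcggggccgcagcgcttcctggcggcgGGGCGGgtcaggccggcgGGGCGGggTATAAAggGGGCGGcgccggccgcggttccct
COL6A3: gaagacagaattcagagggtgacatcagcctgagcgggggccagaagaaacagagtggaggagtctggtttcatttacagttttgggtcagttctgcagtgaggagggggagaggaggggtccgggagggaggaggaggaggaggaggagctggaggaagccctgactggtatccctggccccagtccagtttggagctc
The first is chr21:46097912-46098111 on the plus strand and the second is chr2:237414165-237414364 on the minus strand. The COL6A2 window held TATAAA at -32 to -27 from the start site, 4 matches to GGGCGG and overlapping kappaB matches at -186 to -176, and the COL6A3 window held none of the motifs. Over all 27305 promoters of this length, 8.92% held TATAAA, 39.9% GGGCGG and 7.83% a kappaB match, and among the 52 matched matrix genes 4 held TATAAA, 29 GGGCGG and 5 a kappaB match.

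The chief comparison asked how matrix genes of stromal cells stood after 4 h with myeloma cells. A gene was called higher or lower where the HS-5 coculture sum differed at least 1.5-fold from the HS-5 monoculture sum (log2 ratio with 1 CPM added to both) and the interval of the ratio excluded no difference. By this rule 3 of the 33 members were higher and 1 was lower, while 7.78% of 8810 genes were higher and 9.7% were lower. The higher calls are near the background share and the lower call is a single gene, so that the counts set the matrix genes apart in neither direction. The median log2 ratio was -0.02 over the members and -0.03 over all genes, with 16 members above 0 and 17 below.

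COL5A1, the collagen V chain that sits inside collagen I fibrils, rose from 53.6 to 81.8 CPM, a log2 ratio of 0.60 (0.35 to 0.87). FBLN1, fibulin-1, which binds fibronectin and basement membrane, rose from 18.7 to 30.8 CPM, with a log2 ratio of 0.69 (0.28 to 1.15). COL9A3, a chain of the fibril-associated collagen IX, rose from 15.1 to 23.5 CPM, with a log2 ratio of 0.60 (0.13 to 1.12). The call for COL9A3 rests on 93 UMIs in monoculture and 58 in coculture. COL18A1, the basement membrane collagen whose end is released as endostatin, fell from 23.8 to 13.8 CPM, a log2 ratio of -0.75 (-1.37 to -0.24), on 146 and 34 UMIs. All of these lie below 100 CPM, and at a threshold of 2-fold none of the 33 members was called.

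**Figure D2:**
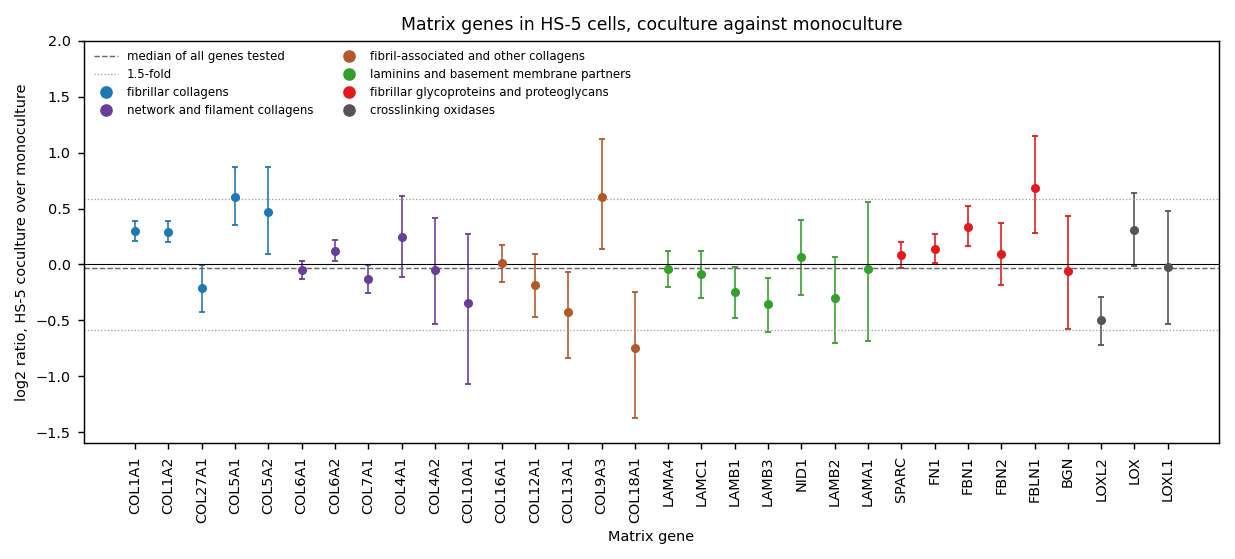
Log2 ratio of HS-5 coculture over HS-5 monoculture for 32 of the 33 matrix genes, coloured by role, with 95% intervals of counting error. Dotted lines mark 1.5-fold and the dashed line marks the median of all genes tested (-0.03). The chains of collagens I and V drawn here lie above 0, and LOXL2 and COL18A1 lie below.

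Among the fibrillar collagens, 5 of 11 genes reached 10 CPM, 1 of them was called higher and none lower. Their summed level was 1174 CPM in monoculture and 1412 CPM in coculture, a log2 ratio of 0.27 (0.21 to 0.32). COL1A1 had a log2 ratio of 0.30 (0.21 to 0.39), COL1A2 one of 0.29 (0.20 to 0.39) and COL5A2 one of 0.47 (0.09 to 0.87), each below the 1.5-fold threshold with an interval above 0. COL27A1, the remaining fibrillar chain, went from 118 to 102 CPM, with a log2 ratio of -0.21 (-0.43 to -0.01). The chains of collagens I and V that reached 10 CPM, which share fibrils, thus lay above 0 together, and COL27A1 did not. COL5A3, the other collagen V chain, averaged below 10 CPM. It stood at 9.93 and 6.88 CPM on 61 and 17 UMIs, a log2 ratio of -0.47 (-1.40 to 0.27).

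Among the network and filament collagens, 6 of 15 genes reached 10 CPM and none was called in either direction. Their summed levels, 1632 and 1642 CPM, gave a log2 ratio of 0.01 (-0.04 to 0.06). COL6A1 had a log2 ratio of -0.05 (-0.13 to 0.03) and COL6A2 one of 0.12 (0.03 to 0.22). COL7A1, which forms the anchoring fibrils below epithelia, stood at 315 and 287 CPM, with a log2 ratio of -0.13 (-0.26 to -0.01). COL10A1, the short-chain collagen of growing cartilage, stood at 13.7 and 10.5 CPM, with a log2 ratio of -0.35 (-1.07 to 0.27). COL4A1 and COL4A2, the chains of the common basement membrane network, stood at 32.9 and 22.6 CPM in monoculture and at 39.3 and 21.9 CPM in coculture.

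Among the fibril-associated and other collagens, 5 of 18 genes reached 10 CPM, with COL9A3 higher and COL18A1 lower. COL16A1 was the most abundant, at 169 CPM in monoculture and 170.4 CPM in coculture. COL13A1, a transmembrane collagen, stood at 41.2 and 30.4 CPM, a log2 ratio of -0.43 (-0.83 to -0.06) that did not reach 1.5-fold. The summed log2 ratio of these genes was -0.08 (-0.20 to 0.04).

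Among laminins and their basement membrane partners, 8 of 14 genes reached 10 CPM and none was called in either direction. Their summed level was 633 CPM in monoculture and 573 CPM in coculture, a log2 ratio of -0.14 (-0.23 to -0.06). LAMA4, LAMB1 and LAMC1, the chains of a laminin of vessel and mesenchymal basement membranes, stood at 185, 105 and 111 CPM in monoculture and at 180.1, 87.8 and 104 CPM in coculture. LAMB3, a chain of the epithelial laminin-332, stood at 95.6 and 74.5 CPM, with a log2 ratio of -0.36 (-0.61 to -0.12).

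Among the glycoproteins and proteoglycans, 6 of 10 genes reached 10 CPM, with FBLN1 the only one called. SPARC, a collagen-binding matricellular protein, stood at 324 and 344 CPM, with a log2 ratio of 0.08 (-0.03 to 0.20). FBN1, fibrillin-1, stood at 126 and 159 CPM, with a log2 ratio of 0.34 (0.16 to 0.52). FN1, fibronectin, stood at 252 and 278 CPM, with a log2 ratio of 0.14 (0.01 to 0.27). MM.1S-specific genes were found in the cocultured HS-5 cells at 0.923% (0.869 to 0.981) of their MM.1S level, and with 0.923% of the MM.1S level, 20.6 CPM, subtracted the log2 ratio of FN1 in HS-5 cells was 0.04. The summed log2 ratio of the list was 0.16 (0.09 to 0.24).

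All 3 lysyl oxidases reached 10 CPM and none was called. LOXL2 stood at 134 and 94.7 CPM, with a log2 ratio of -0.50 (-0.72 to -0.29), just short of the threshold. LOX stood at 38.4 and 47.8 CPM, with a log2 ratio of 0.31 (-0.02 to 0.64), and LOXL1 at 19.7 and 19.4 CPM. The oxidases therefore did not move one way, although their sum, led by LOXL2, had a log2 ratio of -0.25 (-0.42 to -0.08).

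The summed level of all 71 genes was 4772 CPM in HS-5 monoculture and 5009 CPM in HS-5 coculture, which is 4.97% more and a log2 ratio of 0.07 (0.04 to 0.10). That difference was not seen within classes of UMIs per cell, and the part of depth in it was not tested. In monoculture the matrix level was 5534 CPM in cells under 1000 UMIs, 5361 CPM in cells of 1000 or more but under 2000 UMIs and 4222 CPM in cells of 2000 UMIs or more, and in coculture it was 5634, 5178 and 4175 CPM. Within these classes the log2 ratio of the sum was 0.03, -0.05 and -0.02. Deep cells held less matrix message, and they were 752 of 3732 cells in monoculture and 261 of 2100 in coculture. With cells of 200 to 2500 genes and under 5% mitochondrial UMIs the summed log2 ratio turned to -0.06.

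The summed fibrillar collagens stayed above 0 within every depth class, with smaller log2 ratios. These were 0.17 (0.06 to 0.28), 0.22 (0.13 to 0.32) and 0.12 (0.00 to 0.23) from the shallowest to the deepest cells. COL1A1 gave 0.18, 0.24 and 0.17, and COL1A2 gave 0.10, 0.28 and 0.21. COL5A1 gave 0.47, 0.49 and 0.54. LOXL2 gave -0.74, -0.65 and -0.53, at or past 1.5-fold in the 2 shallower classes. FBN1 gave 0.59 and 0.58 in the shallower classes and -0.01 in the deepest, a difference between classes that was not tested. COL6A1 gave -0.17, -0.34 and 0.01, and COL27A1 gave 0.09, -0.46 and -0.69. Of the scarcer called genes, FBLN1 gave 0.87, 0.30 and 0.49, COL9A3 gave 1.5, 0.75 and 0.21, and COL18A1 gave -1.19, -0.75 and -0.73. The intervals of FBLN1, COL9A3 and COL18A1 excluded 0 in the shallowest class alone. Those of COL1A2 and COL5A1 in the shallowest class and of COL1A1 in the deepest class included 0.

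**Figure D3:**
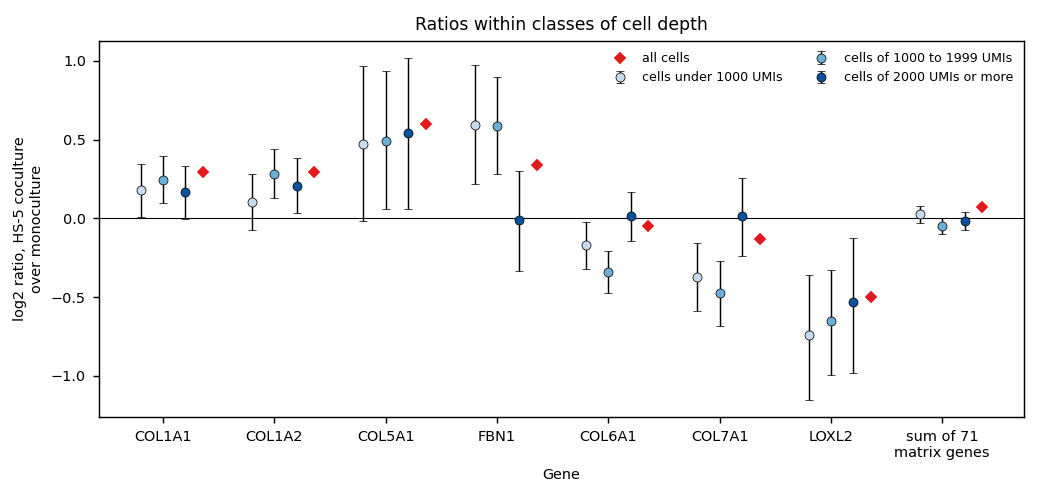
Log2 ratio of HS-5 coculture over HS-5 monoculture within 3 classes of UMIs per cell (circles, with 95% intervals of counting error) and over all cells (red diamonds). COL1A1, COL1A2 and COL5A1 lie above 0 and LOXL2 below 0 in every class, and the sum of the 71 matrix genes lies near 0 in each class (0.03, -0.05 and -0.02).

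Matrix transcripts are long, and longer transcripts were lower in coculture over the transcriptome. Across 8701 genes with a GENCODE transcript length, Spearman's rho between length and the HS-5 log2 ratio was -0.33, as a description across genes, which are not independent replicates. In the quartile of the longest genes the median log2 ratio was -0.18, and the 22 members in that quartile had a median of -0.01. With the trend in length removed the median of the members was 0.11, the log2 ratio of COL1A1 was 0.46 and that of COL5A1 0.80, and the log2 ratio of COL7A1 turned from -0.13 to 0.08. The part of transcript length in these ratios was not tested further.

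Within cells, matrix UMIs were spread over nearly all HS-5 cells. Each cell was thinned to 1000 UMIs, which left 1802 monocultured and 997 cocultured HS-5 cells and left out 1930 and 1103 shallower cells. A matrix UMI was present in 98.2% of the monocultured and 97.9% of the cocultured cells. The mean was 5.04 and 4.95 matrix UMIs for each cell. The variance over the mean was 1.79 and 2.36, where counting alone gives 1, so that cells differed in matrix content beyond counting error in both conditions. At 500 UMIs a cell, which kept 3515 and 1800 cells, it was 1.55 and 1.52. Cells with 10 or more matrix UMIs were 7.66% in monoculture and 9.23% in coculture, an order that turned at 500 UMIs a cell (0.797% and 0.5%). 

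At 1000 UMIs a cell, COL6A1 was seen in 50.4% (48.1 to 52.8) of monocultured and 46.5% (43.4 to 49.7) of cocultured HS-5 cells. COL1A1 was found in 38% (35.7 to 40.2) and 40.2% (37.2 to 43.3), and COL1A2 in 33.5% (31.3 to 35.7) and 37.2% (34.2 to 40.3). These intervals overlap for each gene. Without thinning the shares were 56.1% and 48% for COL6A1, and 45.2% and 43% for COL1A1. In MM.1S monoculture, cells that should lack these chains, the shares were 0.0517% for COL6A1, 0.155% for COL1A1 and 0.103% for COL1A2, and in MM.1S coculture they were 0.792%, 1.06% and 0.264%. LOXL2 was found in 13.9% (12.4 to 15.6) of thinned monocultured HS-5 cells and in 9.33% (7.59 to 11.3) in coculture, intervals that do not overlap.

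**Figure D4:**
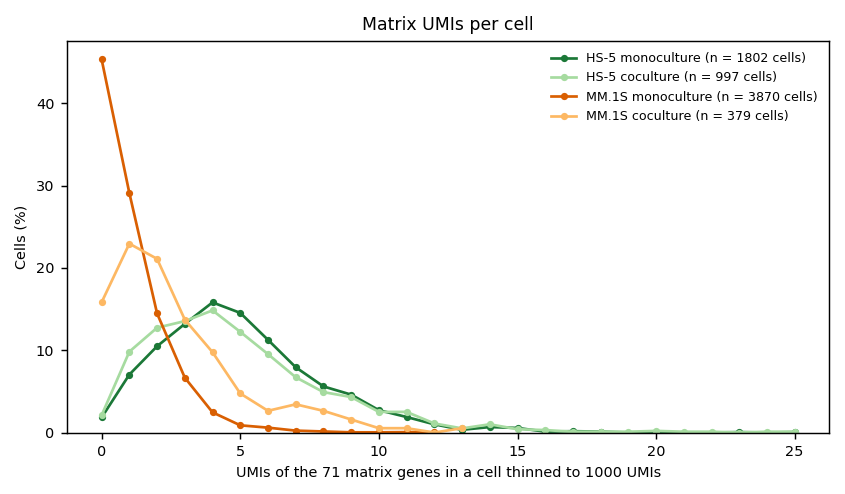
Share of cells (%) by the number of matrix UMIs in a cell thinned to 1000 UMIs, for the 4 groups. The HS-5 curves lie close to each other (means 5.04 and 4.95), and the MM.1S curve moves from a mean of 0.998 in monoculture to 2.62 in coculture.

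Chains that assemble into the same trimer had UMI ratios whose intervals overlapped between conditions in 4 of 5 pairs. COL1A1 over COL1A2 was 1.10 (1.04 to 1.16) in HS-5 monoculture and 1.10 (1.02 to 1.19) in coculture, while both genes had higher levels in coculture. COL5A1 over COL5A2 was 2.11 (1.74 to 2.57) and 2.30 (1.78 to 2.98), COL4A1 over COL4A2 was 1.45 (1.17 to 1.82) and 1.80 (1.27 to 2.55), and LAMB1 over LAMC1 was 0.946 (0.847 to 1.05) and 0.844 (0.702 to 1.02). COL6A1 over COL6A2 was 1.40 (1.34 to 1.47) in monoculture and 1.24 (1.16 to 1.33) in coculture, the only ratio of these 5 whose intervals do not overlap. It varied with depth. The coculture log2 ratios of COL6A1 and COL6A2 were -0.17 and 0.20 in cells under 1000 UMIs and -0.34 and -0.18 in the middle class. In cells of 2000 UMIs or more they were 0.01 and 0.03, nearly the same. These are ratios of 3′ tags and not of protein chains.

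Against the myeloma line, 7 of the 18 members with at least 50 CPM in HS-5 monoculture were at least 50-fold higher there, where 4.39% of 3733 genes of that level were: COL6A1, COL1A1, COL6A2, COL1A2, SPARC, COL7A1 and LAMA4. In MM.1S monoculture these stood between 0.479 CPM for SPARC and 3.07 CPM for COL1A2. In cocultured MM.1S cells the same 7 genes held 70 UMIs, which is 1.63% (1.27 to 2.06) of their level in the HS-5 cells of the same library, and HS-5-specific genes outside the matrix set stood at 1.98% (1.88 to 2.07). The myeloma cells thus carried these stromal matrix transcripts at the level at which other stromal transcripts were found in them.

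FN1 was the exception to the stromal pattern, being the main matrix gene of the myeloma line. It stood at 810.3 CPM in MM.1S monoculture and rose to 2227 CPM in MM.1S coculture, a log2 ratio of 1.46 (1.40 to 1.52), and these levels are above the 252 and 278 CPM of HS-5 cells. After thinning it was found in 46.9% (45.3 to 48.5) of 3870 MM.1S cells in monoculture and in 79.4% (75 to 83.4) of 379 in coculture, against 17.7% and 17.3% of HS-5 cells. Without thinning the MM.1S shares were 68.9% and 65.5%, at median depths of 2201 and 668.5 UMIs. The higher level was seen in each depth class: 987 against 2133 CPM under 1000 UMIs, 806 against 2380 CPM from 1000 to under 2000 UMIs, and 810.0 against 2263 CPM at 2000 UMIs or more. At the 1.98% found for other HS-5 genes, HS-5 cells would give 5.5 CPM of FN1 in MM.1S cells. The 10 MM.1S cells richest in FN1 held 4.86% of its UMIs in coculture, so that no few cells carried it.

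The other members measured in MM.1S cells were scarcer. LAMB3 rose from 11.5 to 96.9 CPM, a log2 ratio of 2.97 (2.70 to 3.45), and COL27A1 rose from 27.2 to 66.8 CPM, a log2 ratio of 1.27 (0.94 to 1.64). LAMA5, the laminin chain of mature basement membranes, rose from 8.24 to 18 CPM, with a log2 ratio of 1.04 (0.41 to 1.80). Over all genes that averaged 10 CPM or more in MM.1S cells, 32.4% of 7839 were higher in coculture and 13.0% were lower. The members above this mean are FN1, LAMB3, COL27A1 and LAMA5, and LAMA5 passed it only through its coculture level, so that no count over them is read against these shares. COL9A3 missed the mean through its low coculture level: it had 145 UMIs in MM.1S monoculture (13.9 CPM) and 2 in coculture (1.5 CPM). From 1000 to under 2000 UMIs COL9A3 stood at 18.1 and 4.56 CPM. At 2000 UMIs or more it stood at 12.7 and 0 CPM, with an interval that included 0. Unlike the rise of FN1, those of LAMB3, COL27A1 and LAMA5 varied with depth and were not seen in the deepest class. LAMB3 stood in monoculture and coculture at 13.7 and 141 CPM under 1000 UMIs, where the monoculture level rested on 1 UMI in 77 cells. From 1000 to under 2000 UMIs it stood at 10.3 and 47.9 CPM, and at 2000 UMIs or more at 11.9 and 7.49 CPM. In that deepest class the log2 ratio turned to -0.60 (-5.98 to 1.85) on 1 UMI in 50 cocultured cells. COL27A1 stood at 41.1 and 82.9 CPM under 1000 UMIs, a log2 ratio of 0.99 (-0.60 to 3.33) on 3 monoculture UMIs. It stood at 33.3 and 57 CPM from 1000 to under 2000 UMIs, the only class with an interval above 0. At 2000 UMIs or more it stood at 25.2 and 7.49 CPM, where its log2 ratio turned to -1.63 (-7.06 to 0.74), again on 1 coculture UMI. LAMA5 had log2 ratios of -0.76 (-2.96 to 2.41) under 1000 UMIs and 1.13 (0.09 to 2.21) from 1000 to under 2000 UMIs, and at 2000 UMIs or more it had 55 UMIs in monoculture and 0 in coculture, so that it was higher in coculture in the middle class alone. The median depth of MM.1S cells was 2201 UMIs in monoculture and 668.5 in coculture, and its part in these rises was not tested beyond these classes. With the trend in transcript length removed, the log2 ratios were 1.01 for FN1, 2.71 for LAMB3, 0.83 for COL27A1 and 0.52 for LAMA5, the last of which is below 1.5-fold.

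The upstream sequences of FN1 and LAMB3 are shown because these members had the highest log2 ratios among the 4 that averaged 10 CPM or more in MM.1S cells, with capitals as above.
FN1: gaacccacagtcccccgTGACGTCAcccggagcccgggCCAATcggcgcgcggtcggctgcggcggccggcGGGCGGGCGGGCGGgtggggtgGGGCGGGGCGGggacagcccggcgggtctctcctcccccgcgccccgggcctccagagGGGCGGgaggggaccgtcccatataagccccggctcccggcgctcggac
LAMB3: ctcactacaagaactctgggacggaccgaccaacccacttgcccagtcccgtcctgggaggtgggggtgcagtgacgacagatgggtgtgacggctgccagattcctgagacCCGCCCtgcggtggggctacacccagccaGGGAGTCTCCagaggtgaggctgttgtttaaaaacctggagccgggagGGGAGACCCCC
The first is chr2:215436069-215436268 and the second is chr1:209652426-209652625, both on the minus strand (RefSeq, GRCh38.p14), and for LAMB3 the first of its listed starts was taken. The FN1 window held TGACGTCA at -183 to -176, CCAAT at -162 to -158 and 6 matches to GGGCGG. TGACGTCA was in 1.68% of all promoters of this length and in no other of the 52 matched matrix genes. The LAMB3 window held 1 match to GGGCGG and kappaB matches at -59 to -50 and at -11 to -1. A match describes letters and not a site in use.

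**Figure D5:**
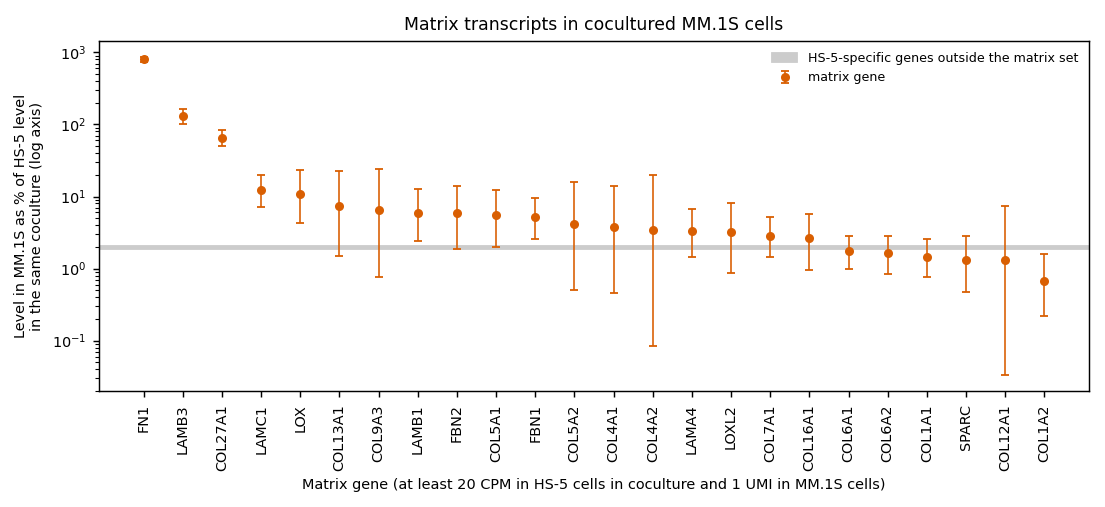
Level of each matrix gene in cocultured MM.1S cells as a percent of its level in HS-5 cells of the same library, on a log axis, for genes with at least 20 CPM in those HS-5 cells and at least 1 UMI in the MM.1S cells. Bars are 95% intervals of counting error and the grey band is the percent of other HS-5-specific genes (1.88 to 2.07); FN1, LAMB3 and COL27A1 stand far above it at 801%, 130.1% and 65.5%.

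Genes that make, bind or accompany the matrix were called in a few members of each list in HS-5 cells. Of 20 collagen processing and secretion genes with at least 10 CPM, 3 were higher and none lower, where 7.78% of all genes were higher and 9.7% lower. P4HA1, a subunit of the prolyl hydroxylase that stabilises collagen, rose from 42 to 65.6 CPM (log2 ratio 0.63), CREB3L1, a transcription factor of collagen secretion, rose from 32.4 to 53.4 CPM (0.70), and BMP1, which trims procollagen, rose from 13.7 to 24.7 CPM (0.81). The lowest ratios were -0.53 for FKBP10, -0.46 for COLGALT1 and -0.38 for CRTAP, none of them called. SERPINH1, the collagen chaperone, stood at 143 and 172 CPM and PLOD2, a lysyl hydroxylase, at 449 and 444 CPM.

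Of 13 matrix receptors with at least 10 CPM, ITGB1, the common integrin beta chain, rose from 353 to 592 CPM (log2 ratio 0.74) and ITGA6, a laminin receptor chain, fell from 125 to 80.5 CPM (-0.63). DDR2, a receptor for fibrillar collagen, stood at 140.3 and 152 CPM, ITGA1 at 31.4 and 34.8 CPM, DAG1 at 23.6 and 16.6 CPM, and SDC4 at 177 and 128 CPM. Of 17 other matrix glycoproteins and proteoglycans, 3 were higher and 1 lower, beside the same 7.78% and 9.7% of all genes: THBS2 rose from 38.1 to 64.4 CPM (log2 ratio 0.74), VCAN, versican, from 16.6 to 27.5 CPM (0.70) and LTBP1, which holds latent TGF-beta in the matrix, from 101 to 155 CPM (0.62). CTGF, a matricellular growth factor, fell from 311 to 199.5 CPM (-0.64). EMILIN1 had a log2 ratio of -0.33 and TNC one of -0.21. Of 11 inflammatory secretome genes, CCL2 rose from 21.8 to 87.4 CPM (log2 ratio 1.95) and CXCL1 from 98.7 to 149.8 CPM (0.60), and CSF3 fell from 917 to 471 CPM (-0.96). CXCL2 had a log2 ratio of 0.21, IL1A one of -0.55 and CXCL8 one of -0.42. The median log2 ratio was 0.10 for processing genes, -0.17 for receptors, 0.10 for other glycoproteins and 0.10 for the secretome, against -0.03 for all genes. The summed log2 ratios were 0.04, 0.04, -0.01 and -0.21, so that median and sum differ in sign for the last 3 lists, as they do for the 71 matrix genes and for the network collagens (median -0.05).

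Correlations among matrix genes across HS-5 cells were low. In thinned cells COL1A1 and COL1A2 had a Pearson correlation of 0.15 in monoculture (1802 cells) and 0.17 in coculture (997 cells), LAMB1 and LAMC1 had -0.02 in both, and the summed matrix genes and the summed inflammatory secretome had 0.05 and 0.06. Higher values were those of COL1A2 with the sum of the other members (0.21 and 0.26), of the summed fibrillar with the summed network collagens (0.20 and 0.25) and of the summed matrix genes with the other matrix glycoproteins (0.22 and 0.24). Among 1982 other genes with at least 100 CPM, those with the highest correlation with the summed matrix genes were MALAT1 (0.25 in monoculture and 0.24 in coculture), SERPINE2 (0.19 and 0.22), THBS1 (0.16 and 0.23), WNT5A (0.18 and 0.16) and HSP90B1 (0.15 and 0.13), where the median gene had -0.01 and 0.00. These are descriptions over cells that share a library, and in counts this sparse such values are no finding.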

How the data were processed

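Drop-seq libraries of MM.1S cells, HS-5 cells and their 4 h coculture were analysed from the deposited UMI counts. The counts per gene and barcode are the authors' raw values. The submitters' processing notes name Cell Ranger 3.0.2, UMI-tools 1.0.0, STAR 2.5.3a, featureCounts 1.6.4, SAMtools 1.9 and the build GRCh38 (hg38); the role of each is not given in the sources used here, nor is a doublet step. The members and lists were chosen with earlier results of these data known.

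Cells with at least 200 genes were kept. Line-specific genes had at least 50 CPM in their own monoculture and were at least 50-fold higher than in the other (63 for MM.1S and 157 for HS-5), and 7 matrix genes that met this were left out. Coculture cells with over 0.8 of these UMIs from HS-5 genes were taken as HS-5 and cells under 0.2 as MM.1S. This also removes doublets of both lines that fall between the limits. Doublets dominated by a single line and doublets within a line stay in. UMIs were summed by group. Intervals are exact Poisson for CPM, conditional exact binomial for ratios and Clopper-Pearson for shares, all at 95% and for counting error only. A call needed a mean of at least 10 CPM in the groups compared, a 1.5-fold difference and an interval off 1, with 1 CPM added for log2 ratios. The floor of 3 UMIs was 0.288 to 2.25 CPM. Transcript lengths were medians per gene in GENCODE. No test between conditions was possible with 1 library each. Named genes were members with at least 100 CPM, the 5 highest and 5 lowest ratios, members with at least 10 CPM in MM.1S monoculture, the 3 highest and 3 lowest of each other list and the 5 genes most like the summed members; further named members are described with their role, and were named after values were seen. Barcodes of more than 1 library stayed in. The values of 1 member are not reported here and not drawn. The calculations were checked on simulated counts. Python 3.11.15, NumPy 2.4.6, SciPy 1.17.1, pandas 2.3.3 and statsmodels 0.14.6 were used.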

Additional observations from a re-analysis of the deposited data

Results flagged for a closer look

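Genes were considered here with a mean of at least 10 CPM in HS-5 cells and at least 10 CPM in an MM.1S group. In 3 of these matrix genes the coculture ratio had an interval above 0 in one line and below 0 in the other. Each ratio came from 1 library a condition, and the difference between lines was not tested. COL18A1, COL7A1, COL13A1 and LAMB1, below 10 CPM in both MM.1S groups, also had intervals below 0 in HS-5 cells and above 0 in MM.1S cells. In MM.1S coculture they held only 9, 11, 3 and 7 UMIs, and their log2 ratios were 1.73, 1.76, 1.34 and 1.15. With 1.98% of the HS-5 level subtracted these were 1.70, 0.41, 1.06 and 0.70. For COL7A1 that share was 5.68 of 8.26 CPM. LAMB3 had a log2 ratio of -0.36 in HS-5 cells and 2.97 in MM.1S cells. COL27A1 had -0.21 in HS-5 cells (-0.43 to -0.01), where it was -0.03 with the length trend removed and 0.09 in cells under 1000 UMIs, and 1.27 in MM.1S cells. COL9A3 had 0.60 in HS-5 cells and -2.57 in MM.1S cells, the latter on 145 and 2 UMIs.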

How the results depend on the processing

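Of 216 values for the comparisons under the alternatives 193 stayed within their limits, 22 moved and 1 turned, and of 371 values for single genes, shares and correlations 331 stayed, 38 moved and 2 turned. Members called higher in HS-5 coculture numbered 0 at 2-fold, 1 at a mean of at least 50 CPM, with cells of at least 500 genes or with 5 CPM added, and 7 at a mean of at least 1 CPM; members called lower numbered 0 at 2-fold and at 50 CPM, and 3 with equal weight per cell or with 200 to 2500 genes and under 5% mitochondrial UMIs. That last limit also gave log2 ratios of -0.059 for the sum of matrix genes and -0.055 for COL6A2, both turned, and 0.15 for fibrillar, -0.18 for network and -0.29 for fibril-associated collagens, -0.019 for receptors, -0.070 for other glycoproteins and -0.18 for the secretome. Equal weight per cell gave 0.016 for the sum, 0.20 for fibrillar and -0.080 for network collagens, and median-of-ratios scaling gave 0.10 for the sum and -0.17 for the secretome. Removing the length trend turned COL7A1 to 0.076. HS-5-specific genes in MM.1S cells stood at 1.83% with at least 500 genes and at 1.70% with limits of 0.1 and 0.9. The cause of these moves was not tested. Without barcodes of more than 1 library 3 members were called higher and 1 lower. The 500-gene limit for MM.1S cells, the subtraction of HS-5 transcripts and the removal of the length trend in MM.1S cells, the depth classes and leaving out barcodes of more than 1 library were chosen after seeing the data. Sums have no value under the filters on level, the 2-fold call or the length trend. No paired analysis was possible because each condition has 1 library, which is also why no replicate could be left out.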
